A study of Mus musculus with 4 samples.

Results

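The imprinted genes between Ube3a and Peg12 on mouse chromosome 7 were examined in embryonic stem cells with and without Parp-1, through the CpG island probes that lie on chromosome 7 from 59400000 to 62600000. The rule takes probes by position alone, but the interval was proposed with earlier results of these data known. It held 20 of the 97651 probes of the array, and they fell into 4 islands (runs of probes with starts at most 500 bp apart) of 14121 islands with at least 3 probes. The interval lists 6 genes: Ube3a, Snrpn, Ndn, Magel2, Mkrn3 and Peg12. Only Ndn, Magel2, Mkrn3 and Peg12 were reached, since no placed probe lay between the lower bound and the Ndn island, so the values below describe the Ndn to Peg12 end of the domain and say nothing about Snrpn.

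Methylated DNA was enriched from sonicated genomic DNA by an antibody to 5-methylcytidine (MeDIP). On each array the antibody-bound DNA carried Cy5, and total DNA from those cells carried Cy3. The arrays held Parp-1 deficient clone 210-58 and Parp-1 deficient clone 226-47, both derived from the J1 line, J1 cells treated with a Parp inhibitor, and J1 cells with neither change, called wild type here, with 1 array each. J1 is a mouse embryonic stem cell line, and Parp-1 is an enzyme of the nucleus that builds chains of ADP-ribose on proteins. Each deficient line is a single clone, and whether the clones arose independently is not stated. The sources used here give no dose or duration for the inhibitor. The Parp1 locus was not analysed here as a check of the labels.

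This domain corresponds to the human region of Prader-Willi and Angelman syndromes. Ndn, Magel2, Mkrn3, Peg12 and Snrpn are expressed from the paternal chromosome and Ube3a from the maternal one in neurons. A control element at the Snrpn promoter, which is methylated on the maternal chromosome in the germ line, governs the domain, and the promoters of the other paternally expressed genes carry methylation on the silent maternal copy. Ndn encodes necdin, a MAGE family protein of neurons, and Magel2 a MAGE protein that acts with a ubiquitin ligase. Mkrn3 encodes a makorin ring finger protein, a ubiquitin ligase known in humans for restraining the start of puberty. Peg12, also called Frat3, belongs to the Frat family, whose members bind the kinase GSK3.

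No column of the files gives a probe's gene, and the sources used here do not name the genome build of the positions, so the names were attached by spacing. The centres of the 4 islands lay 28797.5, 42565 and 44220.5 bp apart. Among 2790 RefSeq start sites of chromosome 7, only 1 chain of 4 sites kept this spacing within 1000 bp, that of Ndn, Magel2, Mkrn3 and Peg12, and its largest deviation was 609 bp. The start sites of Snrpn lie 1.90 to 2.34 Mb from that of Ndn in the same table, on the side where 3.13 Mb held no placed probe. The nearest island on that side lay 3.13 Mb from the Ndn island, 10.9 kb off the spacing of Ube3a, so it was not given that name. A further 442 probes of the array have no position in the files and could not be assigned.

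The promoters of the 4 named genes are shown because the islands were named by these start sites. The probes themselves could not be placed in them. They are RefSeq's in build GRCm38.p6, from 250 bases before to 50 after the start site, with each CpG, the unit the antibody's methylated target sits in, in capitals. Their coordinates are those of GRCm38.p6 and must not be set against the probe positions. Ndn lies at chr7:62348027-62348326 (plus strand), Magel2 at chr7:62376729-62377028 (plus), Mkrn3 at chr7:62420104-62420403 (minus) and Peg12 at chr7:62464461-62464760 (minus).
Ndn: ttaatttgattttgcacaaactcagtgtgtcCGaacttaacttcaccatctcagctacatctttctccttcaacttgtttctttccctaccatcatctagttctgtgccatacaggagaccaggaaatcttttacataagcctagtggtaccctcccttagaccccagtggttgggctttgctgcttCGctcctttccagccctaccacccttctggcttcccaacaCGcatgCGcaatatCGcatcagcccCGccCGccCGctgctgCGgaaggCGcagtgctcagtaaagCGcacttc
Magel2: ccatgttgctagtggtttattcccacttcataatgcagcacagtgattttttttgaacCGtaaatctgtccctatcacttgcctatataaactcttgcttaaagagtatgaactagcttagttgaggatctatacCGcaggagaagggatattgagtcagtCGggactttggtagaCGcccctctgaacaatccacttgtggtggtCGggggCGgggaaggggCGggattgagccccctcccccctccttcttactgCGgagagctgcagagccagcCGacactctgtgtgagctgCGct
Mkrn3: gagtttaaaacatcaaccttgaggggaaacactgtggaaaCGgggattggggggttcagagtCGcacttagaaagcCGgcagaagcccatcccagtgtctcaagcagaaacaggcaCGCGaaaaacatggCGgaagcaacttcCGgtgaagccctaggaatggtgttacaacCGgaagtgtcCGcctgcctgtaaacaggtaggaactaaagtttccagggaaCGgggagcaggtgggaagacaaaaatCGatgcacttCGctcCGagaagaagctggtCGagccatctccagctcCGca
Peg12: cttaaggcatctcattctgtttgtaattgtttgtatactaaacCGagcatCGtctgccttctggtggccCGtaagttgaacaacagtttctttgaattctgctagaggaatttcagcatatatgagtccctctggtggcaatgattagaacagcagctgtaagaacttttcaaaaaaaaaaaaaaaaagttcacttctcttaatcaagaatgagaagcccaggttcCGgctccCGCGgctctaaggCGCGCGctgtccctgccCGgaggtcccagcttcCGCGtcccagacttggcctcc
The Ndn promoter holds 11 CpGs, and 10 of them lie in the part of the window nearer to and past the start site. The Magel2 promoter holds 10, the Mkrn3 promoter 15 and the Peg12 promoter 12. The median over 32817 RefSeq promoters was 7, so all 4 were richer in CpG than the median promoter, and 56.6% to 65.4% of promoters held fewer. The hexamer TGCCGC, which the imprint-keeping factor ZFP57 binds when methylated, was searched on both strands. It was found in 0 of these 4 windows, against 11.6% of all promoters.

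The values are log2 ratios of IP to whole DNA, centred so that 0 is the median probe of each array. Over the 14121 islands they spread less on clone 226-47 (interquartile range 0.999) than on clone 210-58 (1.48), the inhibitor array (1.39) and wild type (1.37). Cy5 was well above background for 91.3% to 98.0% of all probes. Clone 210-58 shared a slide with wild type, and clone 226-47 shared the other slide with the inhibitor array.

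All 4 islands carried their highest methylation signal in wild type J1, and both clones and the inhibitor-treated cells lay below it. None of the clones' differences passed the test across all islands, and the inhibitor array is 1 sample against 1 wild type sample. The clones' difference was largest at Ndn, and wild type was also above the other arrays at 18 of the 20 single probes. Over the whole array, wild type was highest at 26% of all islands and 24.8% of all probes. These counts all rest on the same wild type array, and probes of 1 island are not independent.

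The Ndn island spans chromosome 7 from 62227133 to 62227772 in the files' positions and has 6 probes. Its mean log2 ratio was 0.87 in clone 210-58, 0.61 in clone 226-47, 0.92 in inhibitor-treated J1 and 1.71 in wild type. Wild type stood above the other 3 arrays, which lay closer to one another than any of them to wild type. In their own arrays these values exceeded 76.6%, 75.4%, 78.5% and 88.2% of all islands. The ratio also depends on how many CpGs each fragment holds, so these ranks do not give a share of methylated copies.

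The Magel2 island, from 62256027 to 62256473, has 4 probes. Its mean log2 ratio was -0.34 in clone 210-58, 0.16 in clone 226-47, 0.25 in inhibitor-treated J1 and 0.57 in wild type. The clones lay further apart here than at the other 3 islands, and clone 210-58 was the lowest array. The probe nearest the low end, A_68_P25168848, accounts for the widest gap between the clones, with -1.71 in clone 210-58, where Cy5 was not well above background, and 0.14 in clone 226-47. Over the other 3 probes the clones lay close together, at 0.11 in clone 210-58 and 0.16 in clone 226-47, with 0.40 in inhibitor-treated J1 and 0.92 in wild type. The inhibitor difference from wild type was then -0.52 and that of the clones -0.78.

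The Mkrn3 island, from 62298567 to 62299063, has 4 probes. Its mean log2 ratio was -0.02 in clone 210-58, -0.16 in clone 226-47, 0.12 in inhibitor-treated J1 and 0.67 in wild type. The 4 probes fell into a bright pair and a dim pair, and the dim pair carried most of the difference. Over the 2 probes with Cy5 well above background on all arrays the means were 1.30 in clone 210-58, 1.11 in clone 226-47, 1.53 in inhibitor-treated J1 and 1.58 in wild type. The clones then differed from wild type by -0.37 and the inhibitor array by -0.05.

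The Peg12 island, from 62342626 to 62343445, has 6 probes. Its mean log2 ratio was 0.08 in clone 210-58, -0.11 in clone 226-47, -0.20 in inhibitor-treated J1 and 0.59 in wild type. It was the one island at which the inhibitor array was lowest. One probe, A_68_P25169313, at -2.53 after the inhibitor, was not well above background in Cy5 there. Over the other 5 probes clone 210-58 stood at 0.33, clone 226-47 at 0.08, the inhibitor array at 0.26 and wild type at 0.82.

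**Figure D1:**
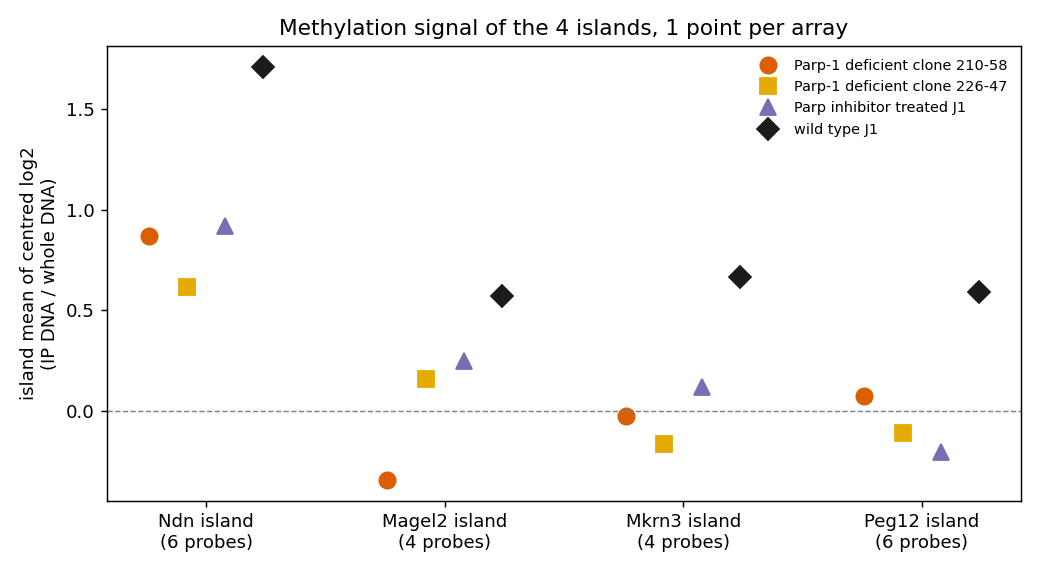
Mean centred log2 ratio of immunoprecipitated to whole DNA (y axis) for each island (x axis), with 1 point per array and no error bars, since each array is 1 sample. Wild type J1 is the highest point at all 4 islands, at 1.71 for Ndn and 0.57 to 0.67 for the others.

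Across Ndn the highest wild type probe was the one with the highest position, A_68_P25168665, at 1.36 in clone 210-58, 1.15 in clone 226-47, 1.65 in inhibitor-treated J1 and 2.52 in wild type. The lowest wild type probe of the island, A_68_P25168660 at its other end, had 0.30, -0.03, -0.17 and 1.07 in the same order of arrays. The top probe was also the highest of the island after the inhibitor, but in both clones A_68_P25168663 was higher, at 1.57 in clone 210-58 and 1.19 in clone 226-47. Every Ndn probe was lower on each of the other 3 arrays than on wild type. In Peg12 the 3 probes of the high-position side had 0.86 to 0.98 in clone 210-58, 0.43 to 1.01 in clone 226-47, 0.48 to 1.26 in inhibitor-treated J1 and 1.42 to 1.52 in wild type. The highest in wild type was A_68_P25169318, with 0.98, 1.01, 1.17 and 1.52 in the order above. The 3 probes of the other side were at 0.38 or below on every array, and the lowest in wild type, A_68_P25169314, had -1.41, -0.93, -0.96 and -0.66.

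In Mkrn3 the highest probe, A_68_P25169129, had 1.71 in clone 210-58, 1.58 in clone 226-47, 1.77 in inhibitor-treated J1 and 2.01 in wild type, and the lowest in wild type, A_68_P25169128, had -1.83, -1.64, -1.13 and -0.51 in that order. Cy5 of this lowest probe was not well above background in clone 210-58. The highest Magel2 probe, A_68_P25168851, had 0.95, 0.71, 0.99 and 1.81. The wild type array was above all others at 18 of the 20 probes, against 24.8% of the 97179 placed and unflagged probes of the array. The exceptions were the first Magel2 probe, where clone 226-47 and inhibitor-treated J1 were higher, and the first Mkrn3 probe, A_68_P25169127, where inhibitor-treated J1 was higher, at 1.29 against 1.15 in wild type. Probes of 1 island share fragments and cells, so the 20 are not independent observations.

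**Figure D2:**
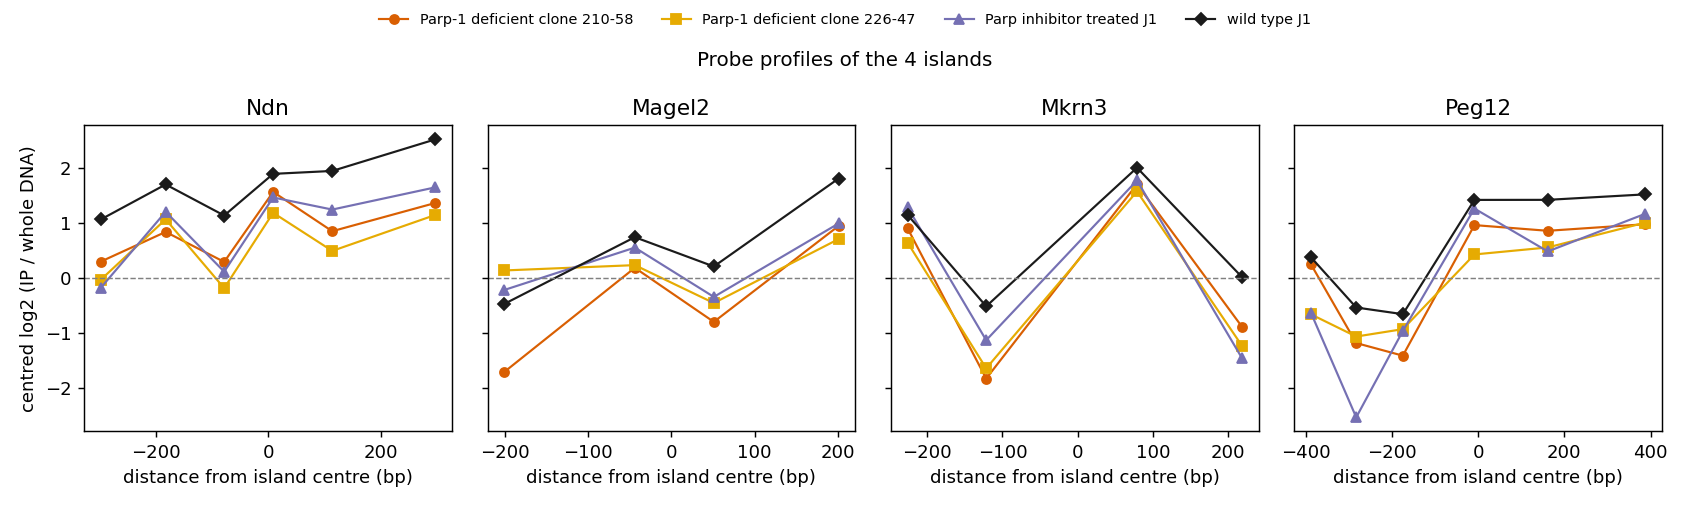
Centred log2 ratio of immunoprecipitated to whole DNA (y axis) at each probe against its distance from the island's centre in bp (x axis), 1 line per array and 1 panel per island. The black wild type line lies above the others at 18 of 20 probes.

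Setting the clones against wild type J1 asks whether methylation of these islands differs in cells without Parp-1. The difference of the clone mean from wild type was -0.97 at Ndn (SE 0.33, 95% interval -1.61 to -0.33), with an unadjusted p of 0.0029 and an adjusted p of 0.078 in limma. The SD between the clones there was 0.18, but the SE follows the trend over all islands and not this SD. It was -0.67 at Magel2 (SE 0.29, limma adjusted p = 0.27), -0.76 at Mkrn3 (SE 0.29, limma adjusted p = 0.16) and -0.61 at Peg12 (SE 0.29, limma adjusted p = 0.35). Both clones lay below wild type at each island, which was so for 33.04% of all islands.

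None of the 4 islands passed limma's test at an adjusted p of 0.05, where 2.78% of all islands passed and 1.59% passed as lower in the clones. At an unadjusted p of 0.05 all 4 passed as lower, against 6.45% of all islands. The median difference over the 4 islands was -0.71, against 0.01 over all islands. With each array scaled by its median absolute deviation, Ndn and Mkrn3 passed, at limma adjusted p = 0.029 and 0.047 (differences -0.96 and -0.81). Under that scaling more of all islands were called too: 384, or 2.72%, passed as lower in the clones, against 225 without it. Over the other settings the lowest adjusted p of any of the 4 ran from 0.063 to 0.32. The spread in this fit comes from the 2 clones alone and follows the general trend with level, so it does not cover the spread between wild type cultures. With normexp the Mkrn3 difference was -0.25.

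Islands with a like signal set the scale of these differences. Of the 1432 islands with a 4-array mean from 1 to 2, as at Ndn, 4.89% passed as lower in the clones, the median difference was -0.16, and wild type was the highest array in 38.5%. Of the 4484 islands between 0 and 1, as the other 3 were, 2.03% passed as lower, the median difference was 0.01, and wild type was highest in 32.4%. Over all islands wild type was the highest array in 26%.

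For the inhibitor-treated cells against wild type there is 1 array on each side, so the comparison was made by size. The log2 difference was -0.79 at Ndn, -0.79 at Peg12, -0.55 at Mkrn3 and -0.33 at Magel2. None reached a difference of 1, the size fixed for this comparison, which 1.25% of all islands reached as lower. At 0.5 or more, 3 of the 4 were lower, against 11.6% of all islands. With normexp background correction 1 of the 4 was, against 2.16% of all islands, since Mkrn3 was then at -0.14, Peg12 at -0.38 and Magel2 at -0.27. With intensity loess 2 of the 4 were, against 3.86%. In a limma fit of all 4 arrays, added after seeing the data, which assumes that single arrays vary as the clones do, the SE was 0.38 at Ndn (95% interval -1.53 to -0.06) and 0.34 at Peg12 (-1.45 to -0.13). The interval was -0.99 to 0.34 at Magel2 and -1.21 to 0.12 at Mkrn3. None of the 4 passed in that fit (limma adjusted p of 0.39 or more), where 1.49% of all islands did. At an unadjusted p of 0.05, 2 passed as lower, against 4.02% of all islands. The median over the 4 was -0.67, and over all islands -0.01. These differences and those of the clones use the same wild type array, so the low side that they have in common at the 4 islands is not independent. Whether the single wild type array is high there, or the other 3 are low, cannot be told apart. The inhibitor array was not on the slide of wild type, so its treatment and its slide cannot be told apart either.

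**Figure D3:**
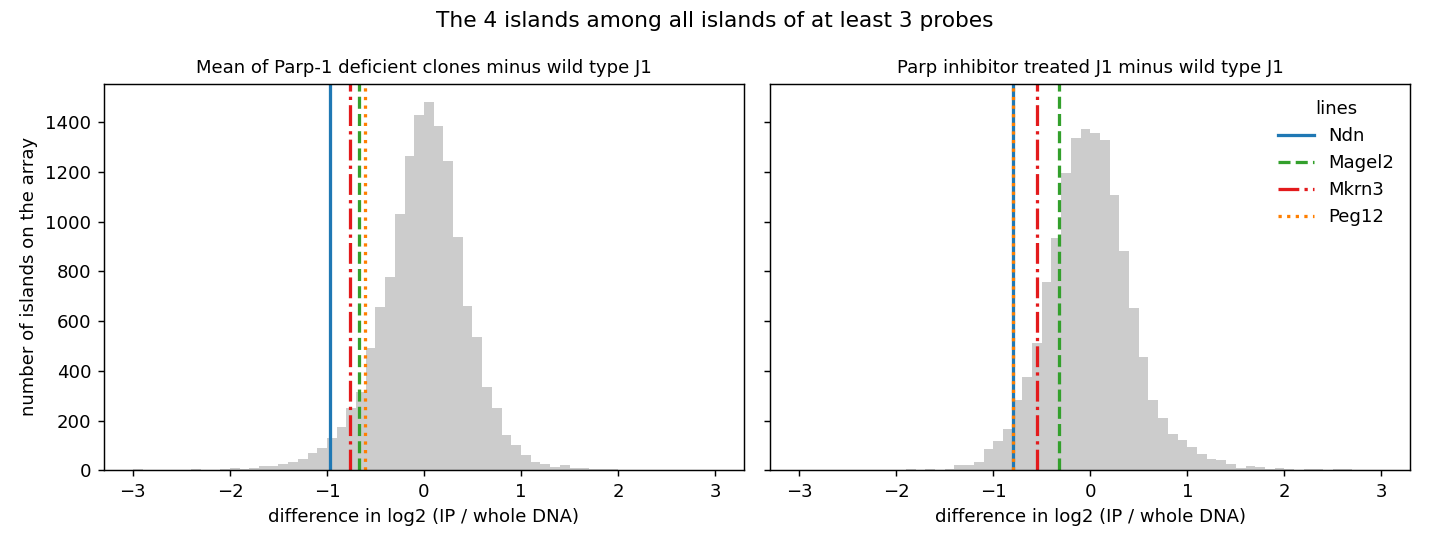
Histograms of the difference from wild type J1 in log2 ratio (x axis) over all 14121 islands (y axis, number of islands; values beyond 3 are drawn at the edge), for the mean of the clones (left) and the inhibitor array (right). The vertical lines mark the 4 islands, at -0.97 to -0.61 on the left and -0.79 to -0.33 on the right.

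The clones and the inhibitor-treated cells were also compared directly, without the wild type array. The clones differed from inhibitor-treated J1 by -0.18 at Ndn (95% interval -0.80 to 0.45), -0.34 at Magel2 (-0.90 to 0.22), -0.21 at Mkrn3 (-0.77 to 0.35) and 0.18 at Peg12 (-0.38 to 0.75). None passed limma's test (adjusted p of 0.98 or more), where 1.35% of all islands passed. At an unadjusted p of 0.05, 0 of the 4 passed, against 8.3% of all islands. The Peg12 difference changed sign with normexp (-0.030) and on brighter probes (-0.060). The intervals leave room for a difference of either sign at each island. On their shared slide, clone 226-47 minus inhibitor-treated J1 was -0.30 at Ndn, -0.09 at Magel2, -0.28 at Mkrn3 and 0.09 at Peg12.

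Clone 210-58 minus clone 226-47 was 0.26 at Ndn, -0.499 at Magel2, 0.14 at Mkrn3 and 0.19 at Peg12. None of the 4 reached a difference of 1 in either direction, which 2.39% of all islands reached, or of 0.5, which 24.3% reached. Magel2 fell only just short of 0.5. On the slide it shared with wild type, clone 210-58 differed from it by -0.84, -0.92, -0.69 and -0.51 in the same order of islands.

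The whole DNA channel follows the amount of each locus in the cells' DNA, and a higher value lowers the ratio. At Ndn the centred log2 Cy3 signal was -0.34 in clone 210-58, -0.37 in clone 226-47, -0.30 in inhibitor-treated J1 and -0.60 in wild type. Wild type was the lowest array in Cy3 at all 4 islands, as at 34.3% of all islands, and lowest at 13 of the 20 probes, against 28.7% of all probes. The clones lay above wild type by 0.24 at Ndn (SE 0.081, limma adjusted p = 0.44), 0.15 at Magel2, 0.06 at Mkrn3 and 0.11 at Peg12, and the inhibitor array by 0.30, 0.23, 0.07 and 0.11. None of the 4 passed limma's test in Cy3, where 1 of the 14121 islands (0.00708%) did, and 0 as higher in the clones. That test called almost nothing, so not passing it says little about these 4 islands. Over the 1031 islands of chromosome 7 the median difference was -0.01 in clone 210-58, 0.03 in clone 226-47 and -0.005 in inhibitor-treated J1. A median does not give the spread of single islands, so it does not show how unusual the 4 islands are.

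The IP channel alone also had its highest value in wild type at all 4 islands, as at 24.4% of all islands. The centred log2 Cy5 signal of Ndn was 0.56 in clone 210-58, 0.24 in clone 226-47, 0.63 in inhibitor-treated J1 and 1.13 in wild type. The Cy5 difference of the clones from wild type was -0.73 at Ndn (SE 0.32, limma adjusted p = 0.30), -0.51 at Magel2, -0.70 at Mkrn3 and -0.50 at Peg12, and none passed, where 2.39% of all islands did. That of the inhibitor array was -0.50, -0.10, -0.47 and -0.69. Averaged over the 4 islands, the clones' difference of -0.75 in the ratio stood beside -0.61 in Cy5 and 0.14 in Cy3. For the inhibitor array, -0.61 in the ratio stood beside -0.44 in Cy5 and 0.18 in Cy3. The log2 ratio is log2 Cy5 minus log2 Cy3 apart from the centring, so the larger part of both mean differences lay in Cy5. Over all 4 Magel2 probes the inhibitor difference lay more in Cy3, with 0.23 there and -0.10 in Cy5. These means include A_68_P25168848, whose Cy5 was not well above background in clone 210-58. At that probe the ratio was 0.25 higher in inhibitor-treated J1 than in wild type. Over the other 3 probes the ratio difference was -0.52 instead of -0.33, so the split between the channels depends on that probe. The cause of the Cy3 differences was not tested.

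**Figure D4:**
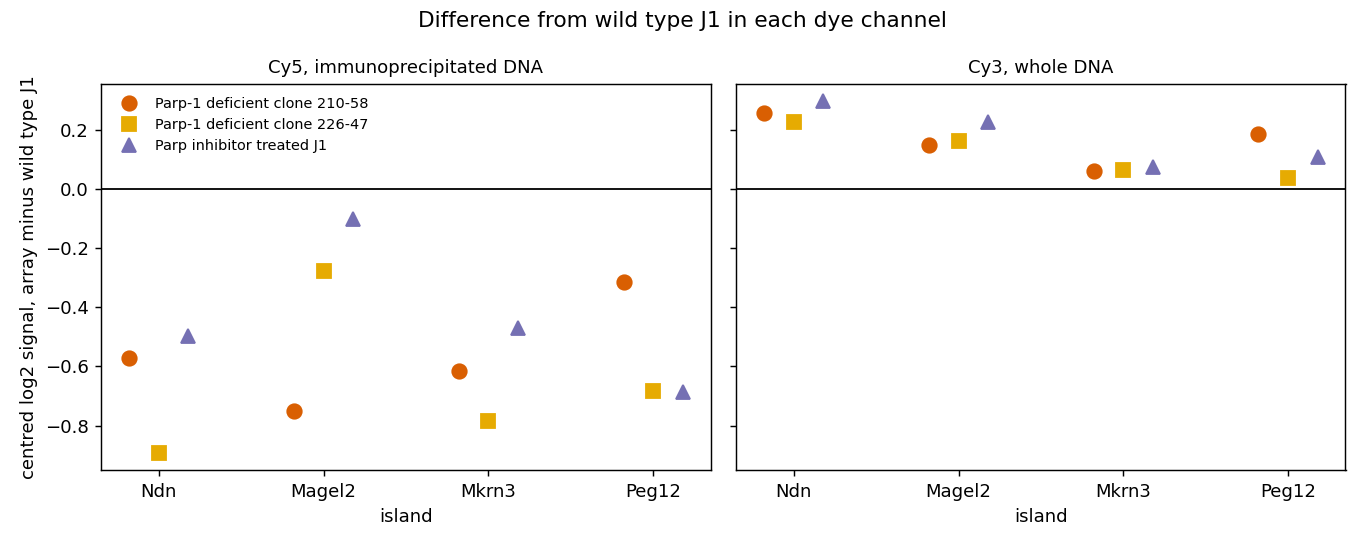
Centred log2 signal of each array minus wild type J1 (y axis) for the 4 islands (x axis), in the Cy5 channel of immunoprecipitated DNA (left) and the Cy3 channel of whole DNA (right), 1 point per array. All 12 points are below 0 in Cy5 and above 0 in Cy3, and all use the same wild type array. Of all islands, wild type was the highest array in Cy5 at 24.4% and the lowest in Cy3 at 34.3%.

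Just outside the interval, the nearest island below, from 59096472 with 10 probes, had -0.23 in clone 210-58, 0.10 in clone 226-47, 0.09 in inhibitor-treated J1 and -0.23 in wild type. The nearest island above, from 63090915 with 7 probes, had -0.03, 0.08, 0.12 and 0.20 in that order. The second island below, from 58525961 with 7 probes, had -0.40, -0.27, -0.25 and 0.08. The second island above, from 63323798 with 6 probes, had -0.31, -0.06, -0.63 and 0.87. It was called lower in the clones (difference -1.06, SE 0.29, limma adjusted p = 0.016), and it lies outside the interval. Wild type was the highest array at 3 of these 4 neighbours, against 26% of all islands. At the nearest island above its lead was small, at 0.20 against 0.12 in inhibitor-treated J1. In Cy3 the differences from wild type were 0.05, 0.18 and 0.15 at the nearest island below, in clone 210-58, clone 226-47 and inhibitor-treated J1. At the second island below they were 0.15, 0.03 and 0.11 in the same order. Above, they were -0.05, 0.15 and 0.05 at the nearest island and -0.06, 0.10 and -0.01 at the second. Cy3 above wild type on every other array was thus also seen at the islands below the interval.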

How the data were processed

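The data are 2-colour CpG island arrays of genomic DNA from 4 cell samples, with immunoprecipitated DNA in Cy5 and whole DNA in Cy3 on each, per the labels' protocols. No dyes were swapped. The deposited intensity values come from Agilent Feature Extraction 10.7.3.1, per the file headers (the submitters' processing notes name 9.1), which subtracted background and normalized each dye by a linear factor. The deposited log10 ratio per spot and the deposited flags per spot come from the same files. The deposited table of the series holds the ratio of processed Cy5 to Cy3, equal to that of the scanner files within a relative 2.13e-08. Flags and other deposited columns were used as given.

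Control spots (5950), 442 probes without a position and 30 with an outlier flag were left out. None of the 20 probes was flagged or saturated. The ratio of processed signals, Cy5 to Cy3, was put on a log2 scale and the median probe of every array set to 0, with no loess or quantile step, and averaged over each run of at least 3 probes. The clones were set against wild type, and against the inhibitor array, in limma 3.58.1 (R 4.3.3; lmFit, eBayes with trend) over 14121 islands with Benjamini-Hochberg adjustment, with 1 residual degree of freedom. In these fits of the ratio limma took the spread wholly from the trend over all islands. An island's own spread between the clones had no weight of its own. Single arrays were compared by size. All islands and, within each, the probes with the highest and lowest wild type ratio were to be named, and other probes were named after their values were seen. Alternatives were quantile, intensity loess and median absolute deviation scaling, normexp, medians over probes, a gap of 1000 bp, brighter probes, no trend, each clone left out and, added later, a limma fit of all 4 arrays. The interval, gene names and tests were chosen with earlier results of these data known.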

Additional observations from a re-analysis of the deposited data

How the results depend on the processing

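Wild type was the highest array at all 4 islands under every normalization, background, summary and gap setting tried, and at the 3 islands that could be tested on brighter probes. The share of all islands with that order ran from 19.5% to 33.4%. Normexp background correction gave smaller mean differences from wild type over the 4 islands, -0.45 for the clones and -0.36 for the inhibitor array, and a mean Cy3 difference of 0.27 for the clones. Scaling by the median absolute deviation brought 2 islands past the threshold in the clones, and a size of 0.5 brought 3 past it after the inhibitor. The number of all islands called in the clones was 781 after that scaling, 529 on brighter probes, 27 with quantile normalization, 0 with intensity loess and 182 with no variance trend, against 393. Peg12 in the clones minus inhibitor-treated J1 changed sign to -0.030 with normexp and to -0.060 on brighter probes, which left Mkrn3 with 2 probes and no test. Without 1 clone or the other, the mean difference ran from -0.76 to -0.74 against wild type, from -0.15 to -0.13 against inhibitor-treated J1, and from 0.12 to 0.16 in Cy3. The cause of these shifts was not tested. Slide as a block left no residual degree of freedom. In a setting added after seeing the data, the difference between the clones was taken as a slide offset and removed. The inhibitor difference was then -0.59. The clones were on different slides, so clone and slide cannot be told apart in that offset. No paired analysis was possible because only the clones have a replicate and the labels number none. The weak IP channel limits the dim probes.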
